A study of Danio rerio with 6 samples.

Results

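Among 25745 gene rows measured in tails of zebrafish embryos, 83 had higher values in sih embryos, whose hearts do not contract, than in WT embryos in each of 3 numbered pairs of libraries, after a named set of blood genes and gene families had been set aside. A row was taken when log2((sih + 1)/(WT + 1)) was at least 0.6 in pair 1, pair 2 and pair 3 and the mean of its 3 sih values was at least 20 normalised counts. These limits were met by 115 rows, 0.447% of all rows and 0.737% of the 15595 rows with a sih mean of at least 20, and 32 of the 115 were left out by name. The rows left out included embryonic globins, haem enzymes, red cell membrane and transcription genes and thrombocyte genes. Also among them were cahz, tfr1a, nt5c2l1, ucp3 and nmt1b, which the rule names. The others were cldng, igfbp1a, igfbp1b, slc25a37 and slc25a38a, of families that the rule sets aside. The 83 genes were chosen by the sih and WT values themselves, so their levels and ratios are given as a description, without a test.

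The study compared sih embryos with WT embryos at 28 hours post fertilisation, in strain AB, with 3 libraries a genotype from cells of the tail. The sih (silent heart) mutation lies in tnnt2a, which encodes cardiac troponin T, so the groups differ in that allele and, per the labels, in the beating of the heart. No treatment is named for either group. The labels do not say how many embryos made up a library or whether replicates came from separate clutches. Where libraries are paired by number, the p-values below measure the spread of the sih to WT difference between these pairs. Without pairing they measure the spread between these libraries. Either spread may be technical. Poly(A) RNA was sequenced, and the deposited values are read counts per gene divided by 1 factor per library.

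At this age the circulating blood of the zebrafish is mostly primitive red cells, which arise in the intermediate cell mass of the trunk and tail and complete their maturation in the bloodstream. A maturing red cell makes globin chains and haem together. It imports iron, builds porphyrin rings through a chain of enzymes split between mitochondrion and cytosol, lays a skeleton of spectrin, ankyrin and adducin under its membrane, and defends its haemoglobin with peroxiredoxins. The tail also holds muscle, notochord, neural tube, epidermis, vessels and the caudal haematopoietic tissue, where erythroid and myeloid cells lodge.

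Whole libraries held 21240839, 26552487 and 21482799 reads in sih replicates 1, 2 and 3, against 22732979, 27222955 and 27006629 in WT replicates 1, 2 and 3. Libraries with the same number deviated together from their genotype means, so a fit with the number as a block was read beside the fit without it. The paired limma fit (log2 of value + 1, two-sided, Benjamini-Hochberg adjusted p under 0.05) called 1105 of 22813 genes, 4.84% of those tested, with 632 higher and 473 lower in sih. Without the block limma called 0, with 235 genes at an unadjusted p under 0.05, edgeR's quasi-likelihood test called 0 and DESeq2 called 48, so the limma calls below rest on the pairing. Of the 62 list genes called in the paired fit, DESeq2 without the block called 2, npsn and mpx. The 18 rows of a red cell marker list all bear names or family prefixes that the rule sets aside, and most of them met its limits. They are therefore given as a description, without a test. Their summed value was between 161615 and 213567 normalised counts in sih libraries, against 35387 to 49435 in WT libraries. Endothelial and neural tube markers had 0 calls among 11 and 8 rows, skeletal muscle markers had 2 of 8 higher, and neutrophil markers had 4 of 6 lower. With values scaled by library totals, the 2 muscle genes, myog and desma, were not called (limma adjusted p = 0.0652 and 0.375). The neutrophil calls were kept under that scaling, which lowered the median log2 change of all genes and so favours lower calls. srgn, 1 of the 4, was not called with a pseudocount of 0.1 (limma adjusted p = 0.0506). Thrombocyte markers had 2 of 5 rows higher, GP9 and gp1bb. Both met the limits of the rule and were left out by name, so these calls repeat its contrast and nothing is read from them. Macrophage markers had 1 of 5 lower, notochord markers 1 of 5 lower and pronephros markers 1 of 6 higher. Head and lens markers had 1 of 7 lower, and epidermal markers 3 higher and 1 lower of 8. Cardiac markers were near absent from both genotypes, with a summed value of at most 20.4 in sih and 28.9 in WT. tnnt2a itself had 0, 0 and 3 reads in sih replicates 1, 2 and 3 and 0, 9 and 4 in WT replicates 1, 2 and 3, too few to check the genotype. In bulk tissue, more cells of a type and more RNA per cell cannot be told apart.

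Setting the named blood genes aside did not leave a set free of blood genes. Globin entries under other names, haem enzymes, an iron importer and parts of the red cell membrane skeleton remained, and 18 of the 83 genes fell in these groups (4 globins, 9 genes of haem synthesis and breakdown, 3 of iron and iron-sulphur proteins and 2 of the membrane skeleton). The rest were assigned by known role to transcription and chromatin (10), signalling and surface receptors (11), transporters and channels (5), metabolic enzymes and metal or redox proteins (11), proteases (3), cytoskeleton, motors and protein turnover (5) and a remainder of 20 with other or no assigned roles. The mean of the 3 pair ratios had a median of 1.16 on the log2 scale over the 83 genes and ran between 0.66 and 2.35. Its median was 2.01 over the 32 rows left out by name and −0.0042 over all 22813 genes tested. By pair the median of the 83 was 1.05, 1.34 and 1.05, and 49 genes had their largest ratio in pair 2. For the red cell markers the log2 ratio of the summed value was 2.06, 2.59 and 2.11 in pairs 1, 2 and 3. The part of the red cell markers in the ratios of the other genes was not tested.

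**Figure D1:**
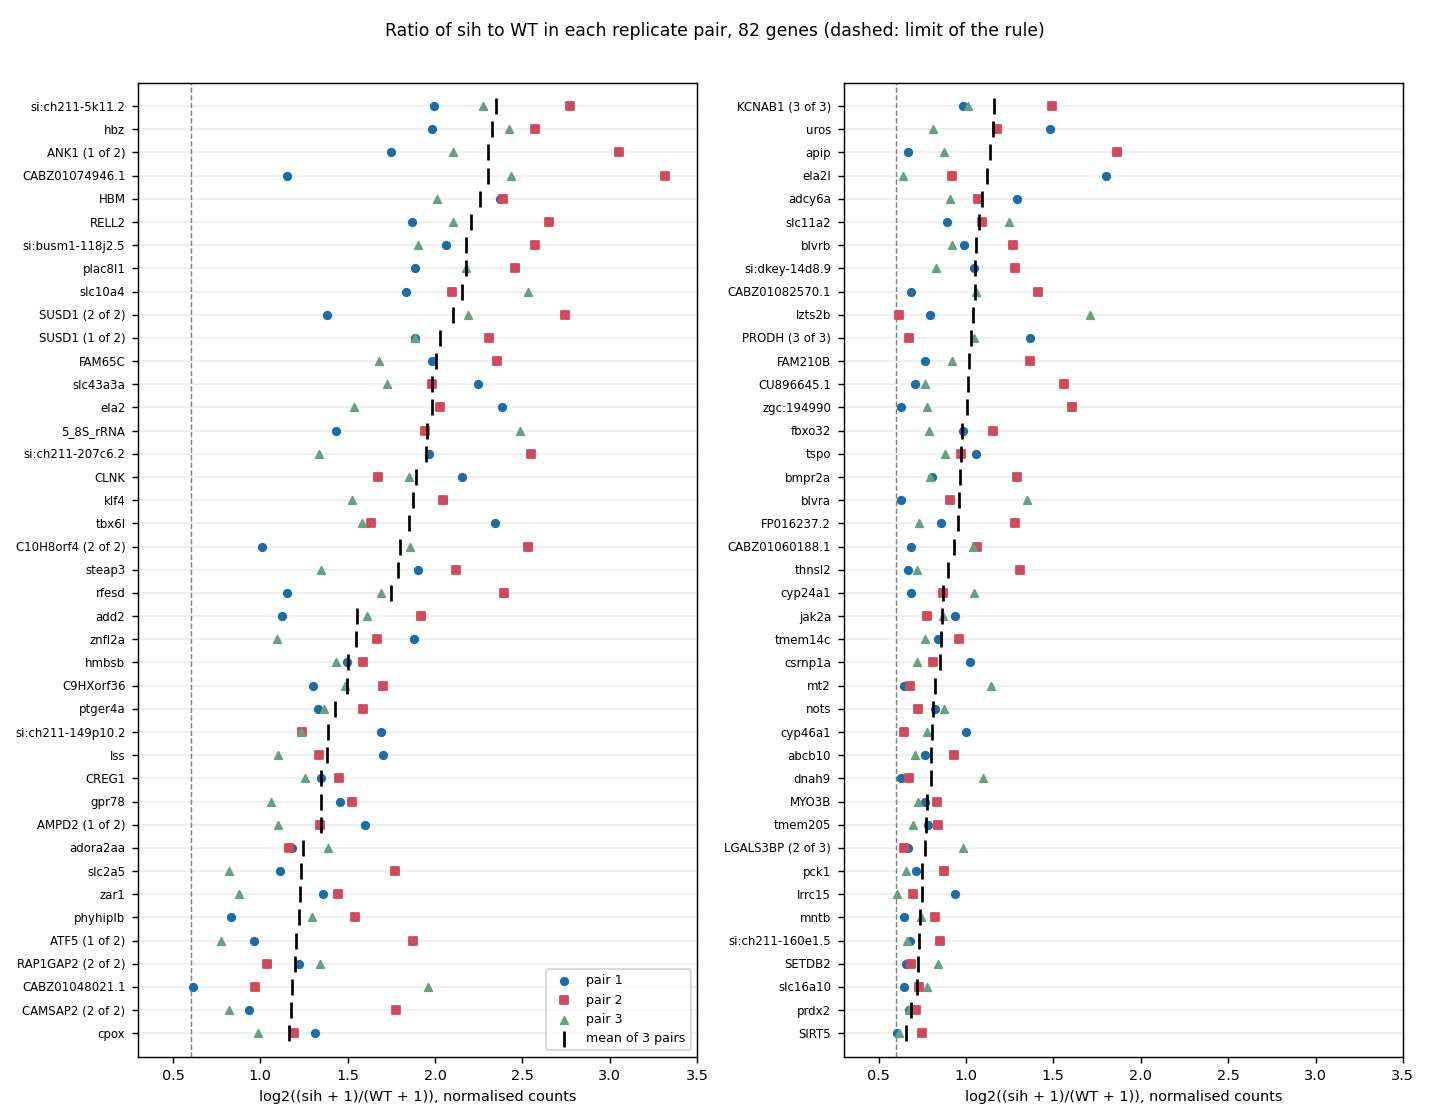
Log2 ratio of sih over WT (value + 1) in each of the 3 pairs for 82 of the 83 genes, ordered by the mean of the pairs (black bar), with the 0.6 limit as a dashed line. The means run between 0.66 (SIRT5) and 2.35 (si:ch211-5k11.2), the 4 globin entries are all among the first 7 genes, and pair 2 often lies farthest right.

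In 53 of the 83 genes every sih library lay above every WT library, a pattern held by 1.91% of the 15595 rows with a sih mean of at least 20. Nothing is read from that share or from its counts by role, since the choice of genes used the same contrast. The roles were also assigned after the values were seen. All 4 globins, 8 of 9 haem genes, 10 of 11 signalling genes and all 3 iron genes had separate groups, as did 2 of 11 metabolic genes and 1 of 5 cytoskeletal genes. Together the 83 genes took 0.233%, 0.285% and 0.234% of all reads in sih replicates 1, 2 and 3, against 0.109%, 0.110% and 0.116% in WT replicates 1, 2 and 3. A single globin entry, si:busm1-118j2.5, held a large part of this. Without it the shares were 0.174%, 0.192% and 0.172% in sih and 0.0929%, 0.0930% and 0.0973% in WT.

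Globin chains pair as alpha and beta types around haem to carry oxygen, and zebrafish embryos express embryonic copies from 2 clusters. si:busm1-118j2.5, which RefSeq lists as a synonym of the embryonic beta globin hbbe1.1, had 14361, 23069 and 18907 normalised counts in sih replicates 1, 2 and 3 and 3441, 3872 and 5064 in WT replicates 1, 2 and 3. si:ch211-5k11.2, an embryonic alpha globin now named hbae1.2, had 5485, 6064 and 6439 in sih and 1376, 886 and 1333 in WT. Every sih library was far above every WT library for both. hbz, matched by identifier to the embryonic alpha globin hbae5, had 314, 334 and 321 in sih and 78.9, 55.3 and 58.97 in WT. HBM, matched to hbae4, had 289, 394 and 288 in sih and 55.01, 74.3 and 70.8 in WT. For both, the lowest sih library was far above the highest WT library. Mean log2 ratios were 2.35 ± 0.40 (SD over 3 pairs) for si:ch211-5k11.2, 2.33 ± 0.31 for hbz, 2.26 ± 0.22 for HBM and 2.18 ± 0.35 for si:busm1-118j2.5. These entries stand among near-identical copies, and reads may have been split between them or with the named globins, so the value of a single entry is uncertain. The adult alpha globin hbaa1 missed the mean limit by a small margin. It had 12.5, 12.04 and 34.4 normalised counts in sih and 1.83, 4.95 and 5.90 in WT, with only 2 reads in WT replicate 1. Its pair ratios of 2.25, 1.13 and 2.36 met the ratio limit, by which it was picked, so no test is given for it.

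Haem is built from glycine and succinyl-CoA by alas2, alad, hmbs, uros, urod, cpox, ppox and fech in turn, and 3 of these steps were among the 83 genes. hmbsb, a hydroxymethylbilane synthase, had 1356, 2152 and 1056 in sih and 479.5, 717 and 391 in WT, with a mean log2 ratio of 1.504 ± 0.08. uros, uroporphyrinogen III synthase, had 775, 869.8 and 731 in sih and 277, 385 and 417 in WT. cpox, coproporphyrinogen oxidase, had 1516, 1294 and 1564 in sih and 609, 565 and 788 in WT. The genotypes did not overlap for any of the 3. abcb10, a transporter of the inner mitochondrial membrane needed for haem synthesis in red cells, had 667, 651 and 590.2 in sih and 392, 341 and 362 in WT. Its genotypes did not overlap. tmem14c, a mitochondrial membrane protein needed for porphyrin handling in maturing red cells, had 899.6, 1707 and 1914 in sih and 502, 877 and 1124 in WT. The genotypes overlapped for tmem14c, with replicate 1 the lowest library of each. FAM210B, a mitochondrial protein tied to iron import for haem, had 584, 576 and 719 in sih and 344, 223 and 379 in WT, without overlap. tspo encodes the translocator protein of the outer mitochondrial membrane, which binds cholesterol and porphyrins. It had 1707, 2223 and 2397 in sih and 819.7, 1133 and 1300.2 in WT.

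Haem is broken down through biliverdin, which biliverdin reductases turn to bilirubin. blvra had 107, 146 and 172 in sih and 68.8, 77.6 and 66.8 in WT, and blvrb had 1154, 2331 and 2100.1 in sih and 582, 968 and 1109.6 in WT. All sih values of both lay above all WT values, although for blvrb replicate 1 of sih came near the highest WT library. The ratio of mean values, sih over WT, was 1.99 for blvra and 2.099 for blvrb.

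Red cells take up iron through transferrin, reduce it in the endosome and export it to the cytosol. slc11a2, the divalent metal transporter that carries iron out of the endosome, had 1179, 1452 and 2411 in sih and 636, 680.3 and 1016 in WT. steap3, the endosomal ferrireductase, had 106, 50.02 and 31.5 in sih and 27.5, 10.7 and 11.8 in WT. Separate genotypes went with a high replicate 1 in both for steap3. rfesd, which carries a Rieske iron-sulphur domain, had 72.6, 282 and 215 in sih and 32.1, 52.8 and 65.8 in WT, with the lowest value of each genotype in replicate 1. Beyond the 83 genes, a list of 27 other tested genes of red cell iron and haem transport held 5 called higher and 0 lower in the paired fit, against 2.77% higher and 2.07% lower over all genes. The same shares over all genes are the background for the call counts of every list below. fth1a, a ferritin heavy chain that stores iron, rose by 0.67 ± 0.09 on the log2 scale (SE, limma adjusted p = 8.94e-05). alad, the second enzyme of haem synthesis, rose by 0.68 ± 0.09 (limma adjusted p = 0.000211). Scaling by library totals decreased the median log2 change of all genes by 0.18, and under it fth1a and alad were the 2 of the 5 higher calls that were kept. Such a shift favours lower calls, so a lower call kept under this scaling, here or in the lists below, gains nothing from it.

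Ankyrin and adducin fasten spectrin and actin to the red cell membrane. ANK1 (1 of 2), ankyrin 1, had 351, 96.3 and 117 in sih and 104, 10.7 and 26.5 in WT. Its replicate 1 values were high in both genotypes, and WT replicate 1 lay between sih replicates 2 and 3, so the genotypes overlapped at a mean log2 ratio of 2.302 ± 0.67. It was the only one of 12 genes with a mean log2 ratio of at least 2 whose genotypes overlapped. add2, beta adducin, had 492, 453 and 359.6 in sih and 226, 119 and 117 in WT, with no overlap. Of 35 other tested genes of the membrane list, 4 were called higher and 0 lower, and 2 of the 4 were kept with library-total scaling. epb49, dematin, an actin-bundling protein of the red cell membrane, rose by 0.94 ± 0.14 (SE, limma adjusted p = 0.000532), and its pair 3 ratio of 0.598 lay just under the limit. The water channel aqp1a.1 rose by 0.52 ± 0.08 (adjusted p = 0.000691).

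**Figure D2:**
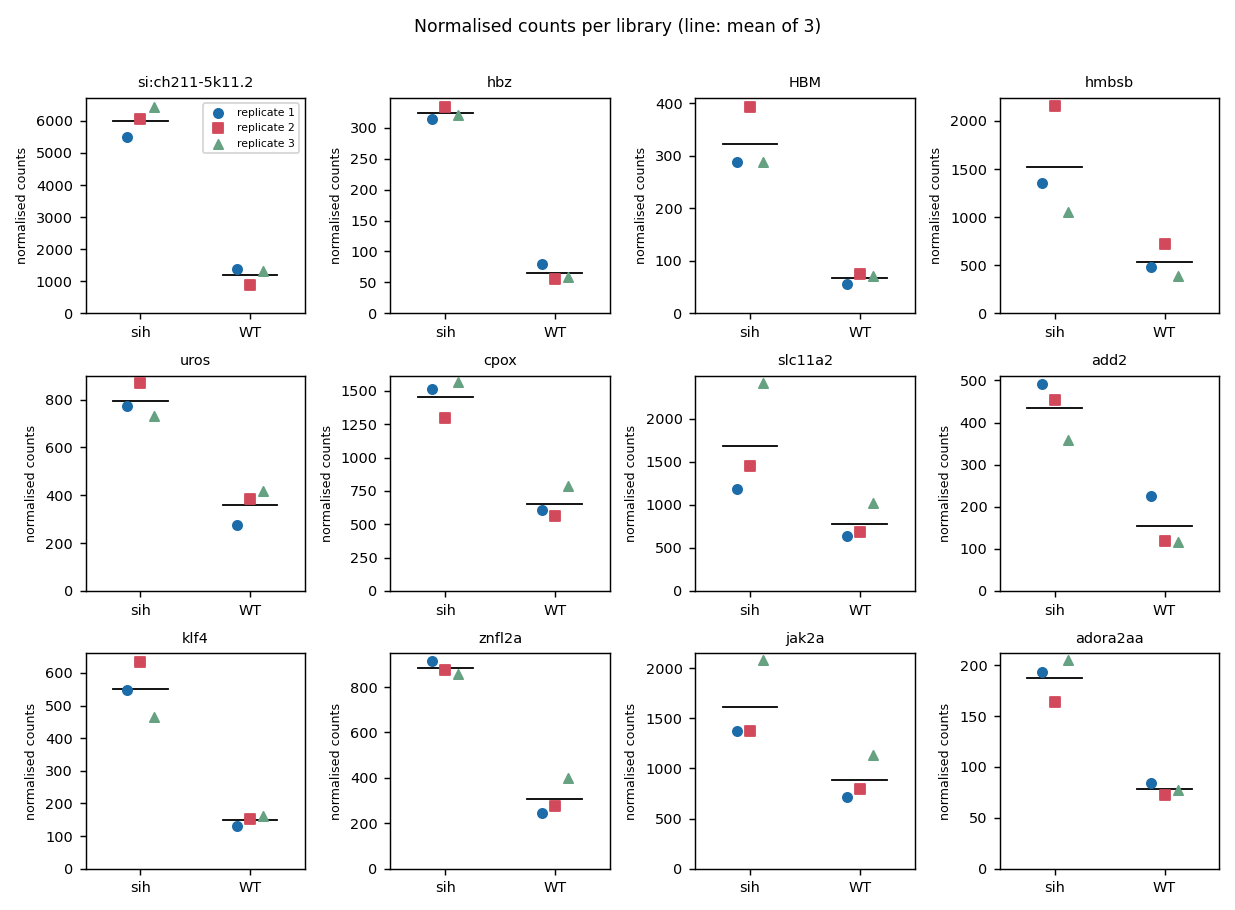
Normalised counts (vertical axes, linear, starting at 0) of 12 genes of the set in the 3 sih libraries (left) and the 3 WT libraries (right), with the replicate number shown by the marker and the mean of 3 as a line. All sih points lie above all WT points in each of the 12 genes, which all belong to the 53 genes with that pattern. The rule used the same contrast, and the other 30 of the 83 genes overlap between genotypes.

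Transcription genes of the set included a red cell regulator. klf4, matched by identifier to klf17, a Kruppel-like factor expressed in early zebrafish blood, had 549, 635 and 466 in sih and 132, 153 and 161 in WT. znfl2a, a zinc finger-like gene, had 914, 874 and 858 in sih and 248, 274 and 401 in WT. Both were separated between genotypes, with mean log2 ratios of 1.87 ± 0.30 and 1.55 ± 0.41. tbx6l, a T-box factor of early mesoderm now named tbx16l, had 209, 91.7 and 87.4 in sih and 40.3, 28.9 and 28.5 in WT. C10H8orf4 (2 of 2), matched to TCIM, had 74.9, 248 and 209 in sih and 36.7, 42.1 and 57 in WT. For tbx6l the high sih library was replicate 1, and for C10H8orf4 (2 of 2) replicate 1 was the low one. CREG1, a secreted glycoprotein named for repression of E1A-stimulated genes, had 695, 836 and 1001 in sih and 273, 305 and 419.7 in WT. Separate genotypes were also seen for csrnp1a, at 269, 253 and 324 in sih and 132, 144 and 197 in WT. The genotypes overlapped for ATF5 (1 of 2), si:ch211-160e1.5, mntb and SETDB2. ATF5 (1 of 2), a factor of the stress response to amino acid and protein-folding load, had 151, 120.4 and 63.03 in sih and 77.02, 32.2 and 36.4 in WT. si:ch211-160e1.5, matched to nupr1a, a stress-induced nuclear protein, had 1113, 1705 and 1917 in sih and 695, 945 and 1213 in WT. mntb and SETDB2, a MAX partner and a histone methyltransferase, had mean log2 ratios of 0.73 ± 0.09 and 0.73 ± 0.10. Of 45 other tested genes of red cell transcription and signalling, 3 were called higher and 0 lower, and 0 of the 3 were kept with library-total scaling. The survival factor mcl1a rose by 0.49 ± 0.10 (SE, limma adjusted p = 0.00785) and its adjusted p was 0.0689 with library-total scaling.

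Of 41 other tested genes of the amino acid and integrated stress response list, 4 were called higher and 2 lower, of which 1 and 2 were kept with library-total scaling. sesn2, a stress-induced sestrin, rose by 0.66 ± 0.11 (SE, limma adjusted p = 0.00175). manf, a chaperone-like protein of the endoplasmic reticulum, had a log2 change of −0.70 ± 0.11 (adjusted p = 0.000691) and fell.

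Receptors and signalling proteins made up 11 of the 83 genes. jak2a, the kinase that relays the erythropoietin receptor in red cell progenitors, had 1377, 1369 and 2077 in sih and 719.8, 799 and 1137 in WT, and a mean log2 ratio of 0.86 ± 0.08. 3 genes of the set act on cyclic AMP. adora2aa, an adenosine receptor that raises it, had 193, 164 and 205 in sih and 84.4, 72.7 and 77.6 in WT. ptger4a, the EP4 receptor for prostaglandin E2, had 49.9, 26.9 and 67.3 in sih and 19.3, 8.26 and 25.6 in WT. adcy6a, an adenylate cyclase, had 509, 235 and 362 in sih and 207, 111 and 193 in WT. The genotypes did not overlap for adora2aa and adcy6a, and for ptger4a the separation was narrow. Of 46 other tested genes of the cyclic AMP, adenosine and prostaglandin list, 0 were called higher and 1 lower. That gene, ptges3a, a prostaglandin E synthase and co-chaperone, fell by 0.42 on the log2 scale (SE 0.09, limma adjusted p = 0.0106).

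The larger ratios of the signalling group lay elsewhere. RELL2, a RELT-like membrane protein, had 227, 197 and 109 in sih and 61.4, 30.5 and 24.6 in WT, with a mean log2 ratio of 2.21 ± 0.40. FAM65C, now ripor3, had 281, 131 and 140.4 in sih and 70.6, 24.8 and 43.2 in WT. CLNK, an adaptor of blood cells known from mammals, had 23.8, 25.9 and 41.5 in sih and 4.58, 7.43 and 10.8 in WT, from as few as 5 reads in a library. No WT library reached a sih library in the 3 genes. gpr78, RAP1GAP2 (2 of 2) and si:ch211-149p10.2 (matched to cd83) were also separate, with mean log2 ratios of 1.35 ± 0.25, 1.199 ± 0.15 and 1.39 ± 0.26. For si:ch211-149p10.2 the separation was narrow, at 12.9 in sih replicate 3 (9 reads) against 12.4 in WT replicate 2 (15 reads). bmpr2a, a receptor for bone morphogenetic proteins, was the gene of this group whose genotypes overlapped, at 103, 17.6 and 22.9 in sih and 58.7, 6.61 and 12.8 in WT.

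Among transporters, slc10a4, of the bile acid carrier family, had 231, 158 and 221 in sih and 64.2, 36.3 and 37.3 in WT. slc43a3a, whose human counterpart carries purine bases, had 64.7, 71.3 and 80.2 in sih and 12.8, 17.3 and 23.6 in WT. The genotypes were apart for both, with mean log2 ratios of 2.15 ± 0.35 and 1.98 ± 0.26. slc16a10, an aromatic amino acid carrier, had 1292, 1378 and 1968 in sih and 825, 831 and 1149.9 in WT. slc2a5, of the sugar carrier family, and KCNAB1 (3 of 3), a potassium channel subunit, overlapped. slc2a5 had 9.08, 27.8 and 45.8 in sih and 3.67, 7.43 and 25.6 in WT, and both genotypes were lowest in replicate 1.

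Most of the metabolic, metal and redox genes overlapped between genotypes. prdx2, a peroxiredoxin abundant in red cells, had 4776, 7674 and 9531 in sih and 2998, 4681 and 5972 in WT, with pair ratios of 0.67, 0.71 and 0.67. mt2, a metallothionein, had 2012, 4417 and 5021 in sih and 1287, 2761 and 2270.2 in WT. In both genes sih replicate 1 fell within the WT range, and all 3 pairs nevertheless had ratios above the limit. AMPD2 (1 of 2), an AMP deaminase, had 3059.6, 479.8 and 549 in sih and 1009.5, 189 and 256 in WT, with replicate 1 high in both genotypes. lss, lanosterol synthase, and cyp46a1, a cholesterol hydroxylase, were the genes of this group with separate genotypes, at mean log2 ratios of 1.38 ± 0.30 and 0.81 ± 0.18. The other members, pck1 of gluconeogenesis, apip of methionine salvage, thnsl2, PRODH (3 of 3), cyp24a1 of vitamin D breakdown and SIRT5, a mitochondrial deacylase, had ratios between 0.66 and 1.13. Of 59 other tested genes of red cell redox, purine and energy metabolism, 4 were called higher and 3 lower, of which 0 and 3 were kept with library-total scaling. The lower calls were mpx, ca2 and hprt1, and mpx is a neutrophil enzyme that is also counted on the neutrophil and macrophage list. hprt1 was not called with a pseudocount of 0.1 (limma adjusted p = 0.0536). Nor was it called without replicate 2 or without replicate 3 (limma adjusted p = 0.0585 and 0.131). ca2, a carbonic anhydrase, fell by 0.84 on the log2 scale (SE 0.10, limma adjusted p = 2.87e-05). cahz, the carbonic anhydrase of the red cell marker list, was among the rows left out by name, with a mean log2 ratio of 1.70.

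Elastases are digestive proteases of the exocrine pancreas, an organ outside the tail. ela2 had 119, 80.6 and 78.8 in sih and 22.01, 18.99 and 26.5 in WT. ela2l had 56.7, 60.2 and 58.7 in sih and 15.6, 31.4 and 37.3 in WT. Neither gene overlapped between genotypes, and their mean log2 ratios were 1.98 ± 0.43 and 1.12 ± 0.61. Other exocrine protease genes were measured beside them. ela3l, ctrl, cpa4 and cpa5 were not called in the paired fit (limma adjusted p = 0.743, 0.238, 0.359 and 0.158), and ctrb1 and cpa1 were near 0. The summed value of 7 other pancreas, liver and yolk markers was between 19.5 and 46.5 in sih libraries and between 18.2 and 92.4 in WT libraries. In the order of RefSeq protein-coding genes (assembly GRCz12tu), ela2l lies next to alas2 and ela2 lies beside ela2l on chromosome 8. alas2, the erythroid enzyme that starts haem synthesis and 1 of the rows left out, had 5365, 4916 and 4275 normalised counts in sih and 1118, 751 and 896 in WT. The counting strand is not stated, so reads of genes that overlap on opposite strands may not be told apart. Only gene order was available here, not whether these genes overlap in the build of the counts. The part of alas2 in the elastase values was not tested. Of 42 other tested genes of the pancreas, yolk and gut list, 10 were called higher and 1 lower, against 2.77% and 2.07% over all genes. With library-total scaling 2 of the 10 and the 1 lower call, apobl, were kept. The pair ratios of apobl were −1.10, 0.08 and −0.64, so pair 2 was not lower. It was not called with a pseudocount of 0.1 (limma adjusted p = 0.117) or with DESeq2 on whole reads (adjusted p = 0.254). Without replicate 3, 3 of the 10 were kept. APOM, an apolipoprotein, rose by 0.70 ± 0.10 (SE, limma adjusted p = 0.000346), and rbp4, a retinol carrier, rose by 0.46 ± 0.08 (adjusted p = 0.00183). nots, the third protease of the set (nothepsin, an aspartic protease), overlapped between genotypes, with a mean log2 ratio of 0.81 ± 0.08.

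The cytoskeletal and turnover genes were dnah9, MYO3B, CAMSAP2 (2 of 2), lzts2b and fbxo32. fbxo32, the muscle ubiquitin ligase subunit atrogin-1, was the only one with separate genotypes, at 22.7, 43.5 and 32.9 in sih and 11, 18.99 and 18.7 in WT. Of 60 other tested skeletal muscle genes, 8 were called higher and 1 lower, against 2.77% and 2.07% over all genes. Of the 8, 2 were kept with library-total scaling and 3 without replicate 3. tcap, a protein of the sarcomere's Z disc, rose by 0.84 ± 0.16 (SE, limma adjusted p = 0.00387), and hspb11 rose by 0.58 ± 0.11 (adjusted p = 0.00504). CAMSAP2 (2 of 2), which binds the minus ends of microtubules, had 127, 25.01 and 12.9 in sih and 66.02, 6.61 and 6.88 in WT, with replicate 1 far above the others in both.

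Of the 20 genes of other or unassigned role, several had large ratios. CABZ01074946.1 had 41.97, 58.4 and 41.5 in sih and 18.3, 4.95 and 6.88 in WT. plac8l1, of the PLAC8 family, had 138, 186 and 248 in sih and 36.7, 33.03 and 54.1 in WT. SUSD1 (1 of 2), a sushi-domain protein, had 66.9, 69.5 and 64.5 in sih and 17.4, 13.2 and 16.7 in WT. SUSD1 (2 of 2), whose identifier matches the same RefSeq gene, had 37.4, 27.8 and 21.5 in sih and 13.8, 3.30 and 3.93 in WT, from as few as 4 reads. Mean log2 ratios of these 4 lay between 2.03 and 2.301, without overlap between genotypes. si:ch211-207c6.2 had 107, 159 and 103 in sih and 26.6, 26.4 and 40.3 in WT. 5_8S_rRNA, a ribosomal RNA that carries no poly(A) tail, had 63.5, 25.01 and 81.7 in sih and 22.9, 5.78 and 13.8 in WT. The others named here were C9HXorf36, zar1, phyhiplb, CABZ01048021.1, si:dkey-14d8.9, CABZ01082570.1, CU896645.1, zgc:194990, FP016237.2, CABZ01060188.1, tmem205, LGALS3BP (2 of 3) and lrrc15, with mean log2 ratios between 0.75 and 1.497. Over the set, 16 genes had fewer than 10 reads in some library.

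Libraries of replicate 1 stood apart for many of the 83 genes. Replicate 1 differed from the mean of replicates 2 and 3, over both genotypes, by more than 1 on the log2 scale in 26 genes (20 above and 6 below), against 20.6% of the 15595 rows with a sih mean of at least 20. The largest such displacement was in CU896645.1, at 255, 9.26 and 15.8 in sih and 156, 2.48 and 8.85 in WT. CABZ01048021.1 followed, at 180.4, 7.41 and 14.3 in sih and 117, 3.30 and 2.95 in WT. Both have replicate 1 far above the other libraries of either genotype, and their mean log2 ratios were 1.01 ± 0.48 and 1.18 ± 0.70. Of the 20 genes with a high replicate 1, 16 overlapped between genotypes. A replicate 1 that is high in both genotypes itself brings WT replicate 1 toward the other sih libraries, so nothing is read from that count. LGALS3BP (2 of 3) rested on 1 read in WT replicate 2.

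**Figure D3:**
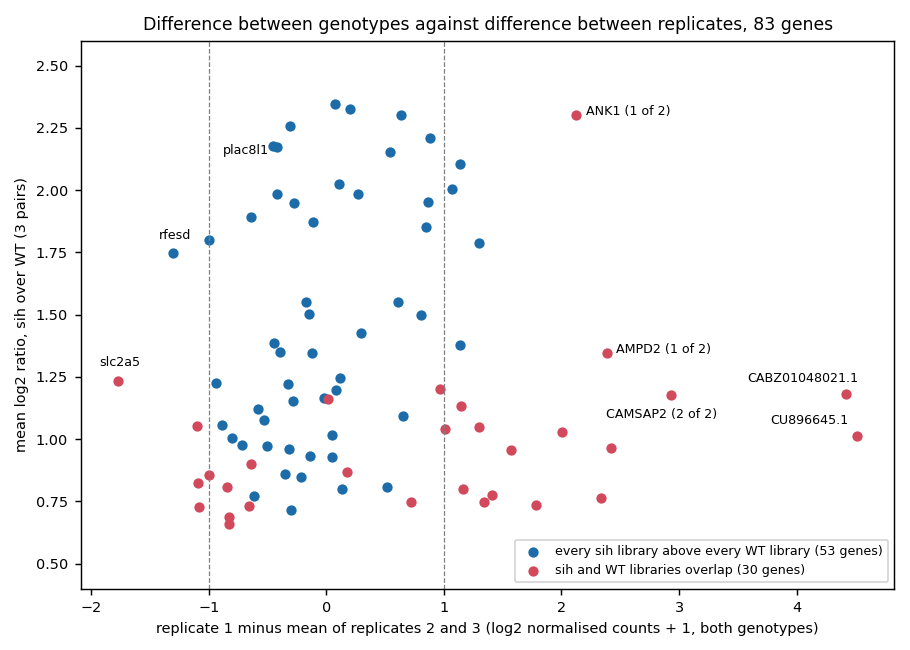
Mean log2 ratio of sih over WT for each of the 83 genes (vertical axis) against the difference of replicate 1 from the mean of replicates 2 and 3 over both genotypes (horizontal axis, log2). Genes with separate genotypes (53, blue) lie mostly between the dashed lines at a displacement of 1 in either direction, and 16 of the 20 genes to the right of them overlap (red). A large displacement itself favours overlap.

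Zebrafish often keep a pair of copies of a gene, and 20 of the 83 genes were matched by name to a copy, or for FAM210B a family member. The 20 include SUSD1 (1 of 2) and SUSD1 (2 of 2), which match the same RefSeq gene. They do not include LGALS3BP (2 of 3), although lgals3bpa and lgals3bpb were measured. Of 22 such copies, 19 did not meet the full set of limits and were not left out by name, and 17 of the 19 could be tested. In the paired fit 0 of the 17 were called higher and 1 lower, against 2.77% higher and 2.07% lower over all genes. Copies that met the limits had been taken out, and the 17 are few, so nothing is read from these counts. Their log2 changes ran between −0.64 and 0.34 with a median of −0.01. jak2b, for example, had 778, 305 and 288 normalised counts in sih and 638, 294 and 393 in WT, with a log2 change of −0.04 ± 0.13 (SE, limma adjusted p = 0.920). ANK1 (2 of 2) had 647, 583 and 364 normalised counts in sih and 677, 553 and 395 in WT, with a change of −0.04 ± 0.10 (adjusted p = 0.896). Genotypes overlapped for both. slc43a3b changed by 0.25 ± 0.17 (adjusted p = 0.463), and nupr1 by 0.34 ± 0.10 (adjusted p = 0.0562). PRODH (2 of 3) was the copy called lower, at −0.64 ± 0.13 (adjusted p = 0.00778). hmbsa, the copy of hmbsb that had been left out by name, was called higher at 0.62 ± 0.09 (adjusted p = 0.000532). The difference between a gene of the set and its copy was not itself tested, and reads of near-identical copies may have been shared between them.

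**Figure D4:**
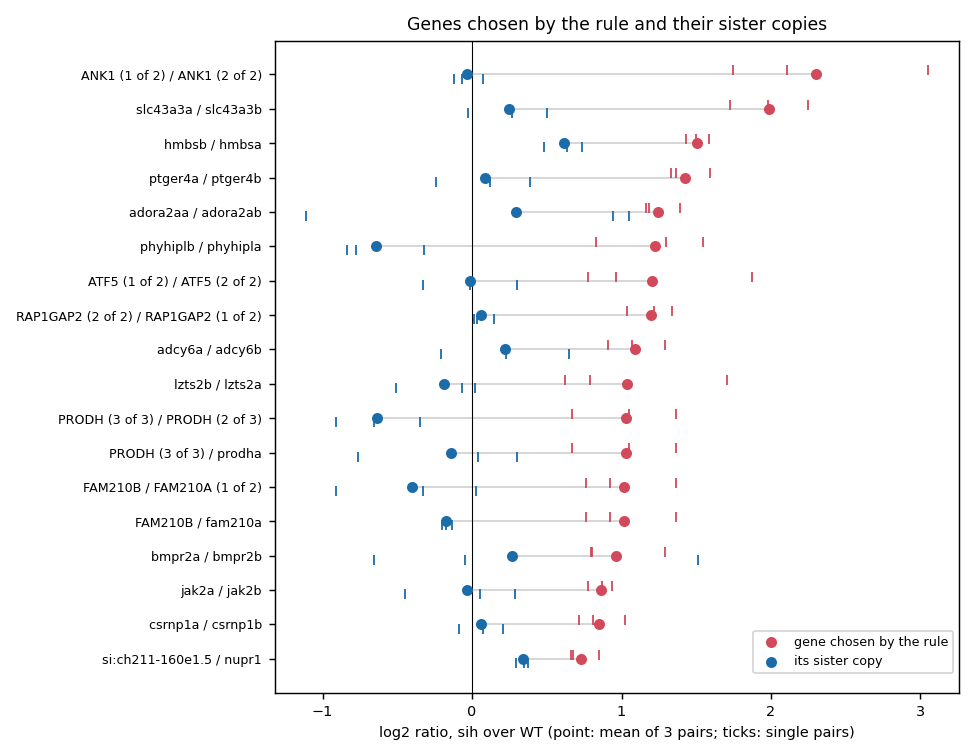
Mean log2 ratio of sih over WT for members of the set matched by name to a tested sister copy outside the set. Each is joined to the copy's own ratio, with single pairs as ticks. Copies outside the full set of limits have means between −0.64 and 0.34, hmbsa (left out by name) lies at 0.62, and each gene of the set has its 3 ticks above 0.6, as the rule demands.

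To describe which genes followed the red cell markers, each row's log2 values were centred over the 6 libraries and the root mean square distance to the summed red cell markers was taken. Of 15577 rows ranked, 13 of the nearest 20 belonged to the set and 7 were among the rows left out by name. si:busm1-118j2.5 lay at 0.134, plac8l1 at 0.163, si:ch211-5k11.2 at 0.178, SUSD1 (1 of 2) at 0.215 and slc43a3a at 0.23. They were followed by HBM (0.233), si:ch211-207c6.2 (0.248), hbz (0.252), klf4 (0.295) and ela2 (0.353). The distance depends on the same values that chose the set and is a description only.

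Position in the genome was not used to choose the genes. RefSeq's gene order placed 73 of the 83 on 22 chromosomes, with 8 on chromosome 5. Within 5 genes of another row that met the limits lay 12 of the 73, or 16.4%, and without the globins 8 of 69, or 11.6%, against 555 of 13997 other rows, or 3.97%. Both genes of a pair within the set were counted, as with ela2 and ela2l beside alas2. The 8 are therefore not independent, no test was made, and nothing is read from the shares. The pairs included slc10a4 and zar1, adjacent on chromosome 20, CREG1 and SETDB2, 2 genes apart on chromosome 1, and znfl2a and igfbp1b, adjacent on chromosome 2. SIRT5 lay 3 genes from igfbp1a on chromosome 20. HBM and hbz lay among hbbe2 and hbbe3 on chromosome 12, and si:ch211-5k11.2 and si:busm1-118j2.5 among the globins of chromosome 3. Of 103 tested genes that lie next to a gene of the set and did not meet the full set of limits, 5 were called higher and 5 lower. The shares over all genes were 2.77% and 2.07%. Leaving out rows that met the limits trims the higher side. The higher calls include cct2 and CCT2 (1 of 2), entries of the same gene, and hbaa1, which met the ratio limits. The median log2 change of the 103 was 0.09.

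Of 39 other organelle clearance genes 3 were called higher and 0 lower, with xpo7 at 0.45 ± 0.10 (SE, limma adjusted p = 0.0107, and 0.0924 with library-total scaling). Thrombocyte genes had 1 higher and 1 lower among 25, hypoxia and p53 genes 2 higher and 1 lower among 55, and cell cycle genes 3 higher and 1 lower among 56. epas1a, a hypoxia-inducible factor, fell, with a log2 change of −0.43 ± 0.09 (SE, adjusted p = 0.00745). Neutrophil and macrophage genes had 1 higher and 6 lower among 36. That higher call, apoeb, is also counted on the pancreas, yolk and gut list. Likewise the higher thrombocyte call, nfe2, is also counted on the red cell transcription and signalling list. The neutrophil proteases and enzymes npsn and mpx fell by 2.48 and 1.89 on the log2 scale (limma adjusted p = 1.74e-07 and 4.19e-07). Over all 13 lists, 553 other genes were tested, of which 46 were called higher and 16 lower, against 2.77% and 2.07% over all genes. Of the higher calls on the organelle clearance, thrombocyte, hypoxia and p53, cell cycle and neutrophil and macrophage lists, 0 were kept with library-total scaling. Their lower calls were all kept, but that scaling lowered the changes of all genes, so nothing is read from this. With a pseudocount of 0.1, the lower calls itgb3a, srgn and MKI67 were lost (limma adjusted p = 0.0526, 0.0506 and 0.0817). MKI67 was also lost without replicate 1 (limma adjusted p = 0.0853).

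Just inside the ratio limit, by the lowest of the 3 pair ratios, were SIRT5 (0.606), lrrc15 (0.608), CABZ01048021.1 (0.616) and lzts2b (0.619). Just outside were epb49 (0.598), sesn2 (0.595), slc20a1a (0.591) and GUCY2C (1 of 2) (0.589). At the mean limit si:ch211-149p10.2, at 20.2 normalised counts in sih, was inside. hbaa1, at 19.6, and FP236606.1, at 19.0, were outside. A mirrored rule for rows lower in sih was met by 44 rows, 0.171% of all rows, against 0.447% for the rule used here.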

How the data were processed

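The deposited table holds, per gene, a signal that is normalised counts by the authors. Dividing each column by its smallest step gave whole numbers for 100% of values (tolerance 1e-06). The table therefore holds read counts divided by 1 factor per library, and these reads were recovered. Counting error limits the precision of genes with few reads, and spread between libraries adds to it. Per the submitters' processing notes, Zv9, TopHat, HTSeq 0.5.3p5 and edgeR 3.0.8 were used, with no role or order given. The strand used for counting is not given in the sources used here.

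Ratios were taken per numbered pair with a pseudocount of 1. Genes whose mean reached 1 in sih or in WT entered limma 3.58.1 in R 4.3.3, on log2(value + 1) with a mean-variance trend, without and with the replicate number as a block, and adjusted over all genes. edgeR 4.0.16 and DESeq2 1.42.0 served as alternatives on the whole reads. Deviations from genotype means correlated at 0.932, 0.884 and 0.852 between libraries with the same number and between −0.73 and 0.136 otherwise (13248 genes with a mean of at least 50), so the numbers were taken to pair the libraries.

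The members, gene lists and tests were chosen with earlier results of these data known. Role groups, sister copies and neighbouring genes were defined after the members' values were seen. Genes named are the 15 with the highest mean ratio, the 6 with the highest mean value, those on a list, those nearest the limits, neighbours, and up to 2 called genes of a list, smallest p first; further members are named to account for the set, and 1 gene of the set, counted throughout, is not reported here by name. Current names came from RefSeq or a gene name table, and gene order from RefSeq assembly GRCz12tu, which is not the build of the counts, so no coordinates are given.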

Additional observations from a re-analysis of the deposited data

How the results depend on the processing

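Without the replicate block limma called 0 genes, DESeq2 called 48 (46 higher in sih), and the replicate block gave 1105 (632 higher). The paired count was 410 with a pseudocount of 0.1, 1799 with edgeR's quasi-likelihood test (1004 higher) and 2241 with library-total scaling, where only 181 were higher, and leaving out a replicate gave 506 to 1482. The 83 genes became 45 with library totals, 46 with a ratio limit of 0.8 and 26 when every sih library had to exceed every WT library by the limit, and 163 to 174 without a replicate, where fewer ratios were required. Their median log2 ratio was 0.98 with library totals, against −0.18 for all genes there, and 1.101 to 1.192 without a replicate. The 62 calls on the lists became 26 with a pseudocount of 0.1, 106 with edgeR and 71 with library totals, of which 9 were higher, against 46 of 62; leaving out a replicate gave 45 to 77. With library totals the mean ratio of 25 of the 83 genes moved by more than their spread between pairs. The promoter motif alternatives were not run. Depth limits the 16 genes with fewer than 10 reads in some library.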
